A study of Bos taurus with 8 samples.

Results

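Fibro-adipogenic progenitors (FAPs) of unsorted bovine muscle cultures were compared between an early and a late passage. The cells were those that carried the deposited label FAPs in the unsorted cultures, which came from donors 1, 2 and 9. There were 2417 such cells at passage 2 (P2) and 746 at passage 8 (P8), together 3163 of the 36129 cells of the series and of its 21409 labelled FAPs. All cells came from the semitendinosus muscle of Belgian Blue cattle, were freed with collagenase and were grown without serum, on fibronectin in the case of unsorted cells. Donors 1 and 9 were adult cows and donor 2 was a female calf, with no treatment other than passaging. Donors 4, 7 and 8 (2 calves and 1 adult) gave sorted FAP cultures on collagen I, which were used for comparison only, and each passage was a single droplet library into which the cells of 9 donors had been pooled. The effect of passage and the effect of the library therefore cannot be told apart, and n = 3 below counts animals.

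FAPs are the stromal progenitors that lie between the fibres of skeletal muscle. They lay down collagen and other matrix, secrete factors that act on muscle stem cells (satellite cells, SCs), and can turn into adipocytes or fibroblasts, for which they carry the receptor gene PDGFRA and abundant matrix genes such as DCN and LUM. In a mixed muscle culture they grow beside SCs, which carry ITGA7, MYF5 and MYOD1, and in cultured meat work they are both a wanted source of fat and a contaminant of SC cultures.

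The 2 libraries differed in yield and in depth, and a second sequencing run was listed for P2 but not for P8. The P2 library held 8966 kept cells and the P8 library 2772, and 19.6% of the barcodes at P2 but 45.9% at P8 had been classed as doublets of different donors and were left out. A further 309 of 12210 barcodes at P2 and 1551 of 8579 at P8 had been classed as ambiguous. Doublets of cells from the same donor are not seen by that method, and more of them may remain at P8, where more doublets were found. FAPs of donors 1, 2 and 9 numbered 704, 980 and 733 at P2 and 389, 210 and 147 at P8. Their unique molecular identifiers (UMIs) summed to between 25166422 and 30747403 per donor at P2 and to 8950945, 3220218 and 3486853 at P8, so levels of scarce genes rested on fewer UMIs at P8. The median FAP carried 36807.5, 31537.5 and 34058 UMIs at P2 and 22897, 15160.5 and 24342 at P8, a drop in 3 of 3 donors. The share of mitochondrial UMIs per FAP, in the deposited cell table, was also lower in all 3, with a mean of the donor medians of 2.91 ± 0.162% at P2 and 2.01 ± 0.191% at P8 (SD, n = 3). At P5 it was 3.85 ± 0.188%, above both. Of the barcode sequences, 27 occurred in both libraries, and none of them was shared by the FAPs compared here.

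**Figure D1:**
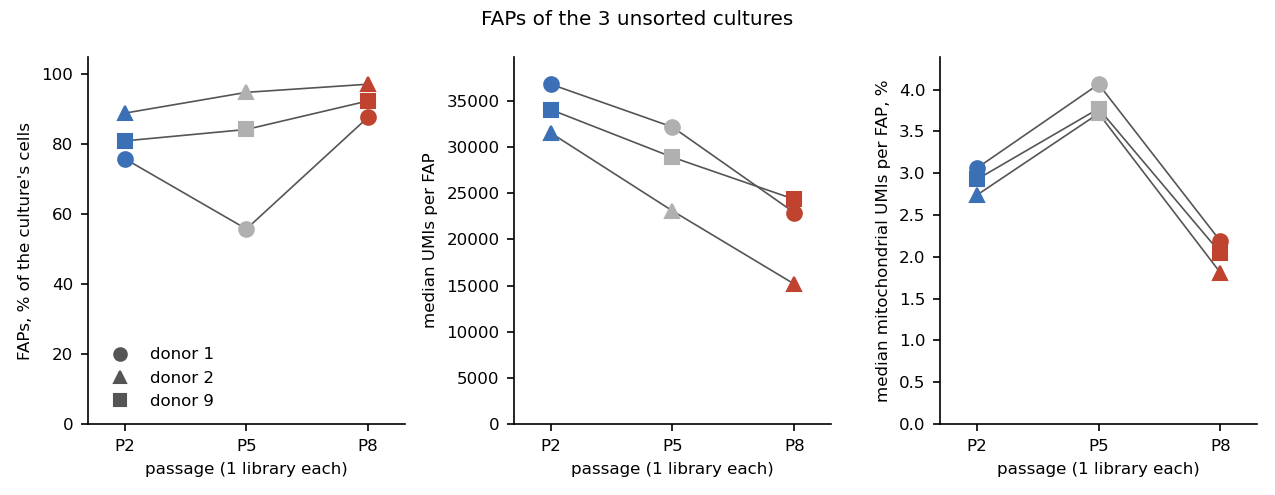
Share of FAPs among the kept cells of each unsorted culture (left, %), median UMIs per FAP (middle) and median share of mitochondrial UMIs per FAP (right, %) at P2, P5 and P8, with 1 point per donor and lines joining a donor's points. All 3 donors had a larger FAP share, fewer UMIs per FAP and a smaller mitochondrial share at P8 than at P2, while donor 1 had its smallest FAP share at P5 (55.8%).

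The label was checked against marker genes in the sums of UMIs per donor, given as counts per 1000000 UMIs (CPM). The CPM of FAPs include scaling factors between sums (TMM) and those of SCs do not, so close values of FAPs and SCs cannot be ordered. DCN, which encodes the proteoglycan decorin, stood at 8351, 9266 and 9465 CPM at P2 and at 4700, 8969 and 3142 CPM at P8 in donors 1, 2 and 9. PDGFRA was at 197, 359 and 287 CPM and then at 89.0, 331 and 72.9 CPM. At P2 both genes were higher in FAPs of each donor than in the labelled SCs of the same cultures, where DCN was at 1670 to 4468 CPM and PDGFRA at 40.9 to 89.4 CPM. At P8, where few SCs remained, the SCs of donors 1, 2 and 9 held 1770, 2109 and 2813 CPM of DCN and 22.2, 32.9 and 72.3 CPM of PDGFRA, so that FAPs and SCs of donor 9 lay close together in both genes. In the opposite direction, the SC receptor gene ITGA7 was at 4.73 to 5.97 CPM in FAPs at P2 and at 1.30 to 4.37 CPM at P8, against 70.7 to 153 CPM in SCs at P2. The leukocyte gene PTPRC, the MHC class II chain gene CD74 and the pericyte gene RGS5 were at 0 in every sum, and the endothelial genes PECAM1 and CDH5 did not pass 0.273 CPM. Over the whole lists, 9 of 12 macrophage and leukocyte markers, 8 of 12 vascular endothelial markers, 5 of 10 smooth muscle and mural markers and 6 of 8 glial markers stayed below 1 CPM in all 6 sums. The summed level of the macrophage list was 13.6 to 20.6 CPM at P2 and 11.7 to 17.7 CPM at P8, most of it CD14, and that of the endothelial list 16.4 to 23.1 and 25.3 to 34.1 CPM, most of it VWF and FLT1. FLT1, a VEGF receptor, was itself called higher (log2FC 1.07), but not without donor 1 (edgeR adjusted p = 0.21) or donor 9 (0.14). In these sums DCN, PDGFRA and ITGA7 separated the labels in every donor at P2. At P8 DCN and PDGFRA hardly separated them in donor 9, in which ITGA7 stood at 4.37 CPM in FAPs and 40.2 CPM in SCs. LUM was at 1532 CPM in FAPs and 1575 CPM in SCs of donor 9 at P8, values too close to be ordered on their unlike scales. Not every FAP marker was higher in FAPs: GSN stood at 397, 549 and 369 CPM in FAPs at P2 and at 2355, 2242 and 2928 CPM in SCs. TNXB, a scarce gene, was also higher in SCs of each donor at P2.

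FAPs took a larger share of each culture at P8. They made up 75.9%, 88.9% and 81.0% of the kept cells of donors 1, 2 and 9 at P2 and 87.8%, 97.2% and 92.5% at P8, the rest being labelled SCs. The share was higher in 3 of 3 donors, by 10.5 ± 1.96 percentage points (SD, n = 3), and the 2-sided exact sign-flip permutation p was 0.25, the smallest that 3 pairs allow. By a rule on 8 marker genes in place of the label the difference was 0.337 points, since 98.9% or more of the cells of each culture passed that rule at P2 and P8, labelled SCs included. The path was not the same in each animal, since the P5 shares were 55.8%, 94.9% and 84.3%. As few as 54, 6 and 12 SCs of these donors remained at P8, so SC levels at P8 are given here as rough values.

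Between P2 and P8, SST (somatostatin), CCL26 (eotaxin-3), EDIL3 and 5 integrin subunit genes rose in the FAP sums of all 3 animals. The decoy receptor gene IL1R2, the protease gene ADAMTS1, the BMP target gene ID1 and the collagen gene COL5A3 fell. UMIs were summed per donor and compared in edgeR with donor as a block, with calls made where the adjusted p was under 0.05 and the log2 fold change (log2FC) passed 1 in size. Of 11387 genes tested, 191 were called (1.68%), of which 129 were higher at P8 (1.13%) and 62 lower (0.544%). All 191 moved the same way in all 3 donors, and in 177 the donors of P2 and P8 did not overlap, as was the case in 18.9% of all genes tested. The calls were made from these same sums by a fit that favours agreement between donors. Both counts thus follow largely from the selection and are no further evidence. The median log2FC of all genes was -0.01. Most called genes were scarce: 67 of them, 47 higher and 20 lower, had a mean of 20 CPM or more in the passage with the higher level. Without the donor block 93 genes were called, and without donor 2 there were 574, without donor 1 111 and without donor 9 113. Of the genes named at the head of this paragraph and the 5 integrin genes, the calls of SST, ITGA3, ITGA8 and ADAMTS1 were lost with at least 1 donor left out.

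Among the 15 largest rises at 20 CPM or more were secreted factors. CCL26, which encodes eotaxin-3, a chemokine for eosinophils, stood at 55.6, 52.8 and 90.6 CPM at P2 and at 719, 353 and 1357 CPM at P8 in donors 1, 2 and 9. The lowest P8 value was well above the highest P2 value, and the P5 values of 331, 273 and 344 CPM lay between. The log2FC was 3.45 (SE 0.26, edgeR adjusted p = 0.00535). Cells were thinned to 8000 UMIs for shares, which left out 10 of 2417 FAPs at P2 and 108 of 746 at P8 that were shallower. Of the 2407 and 638 others, 24.6% carried a CCL26 UMI at P2 and 77.9% at P8 (49.1% and 88.1% of all FAPs without thinning). In labelled SCs the thinned shares were 5.03% of 497 cells and 41.1% of 56 cells (9.48% and 65.3% without thinning). The median depth was 33676 and 20158 UMIs in FAPs and 18431 and 17549 UMIs in SCs.

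SST, the gene of the peptide hormone somatostatin, was close to 0 at P2 with 0.837, 0.0337 and 0.789 CPM (22, 1 and 20 UMIs). At P8 it stood at 17.7, 25.6 and 33.8 CPM (164, 82 and 124 UMIs), with 11.2, 1.33 and 8.36 CPM at P5. The groups did not overlap, and the log2FC was 5.56 (SE 0.67, adjusted p = 0.0423 in edgeR), but the adjusted p was 0.10 without donor 1 and 0.54 without donor 9. APOA1, the main protein of high-density lipoprotein, went from 3.61, 4.72 and 1.66 CPM to 23.9, 70.3 and 8.19 CPM, with the largest rise in donor 2. CCN3, a matricellular protein of the CCN family, rose from 52.2, 58.7 and 38.4 CPM to 233, 187 and 121 CPM. TFPI, the inhibitor of tissue factor, rose from 10.7, 12.7 and 12 CPM to 33.3, 46.5 and 50.5 CPM and was higher still at P5, the only 1 of these 15 genes whose P5 mean lay past that of P8. F3, which encodes tissue factor itself, fell from 105, 68.8 and 92.5 CPM to 41.2, 46.2 and 38.8 CPM (log2FC -1.07, SE 0.17, adjusted p = 0.022 in edgeR). The F3 call was lost without donor 1 (adjusted p = 0.12) and without donor 9 (0.11).

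Among the 15 were also EDIL3, ITGA6, FCGR1A and STMN2. EDIL3, a secreted integrin ligand, went from 8.86, 20.9 and 8.40 CPM to 103, 139 and 79.2 CPM, through 34.1, 64.1 and 35.3 CPM at P5. Its groups were far apart, and its adjusted p in edgeR was the smallest of the 15 (log2FC 3.16, SE 0.17, adjusted p = 0.00112). Labelled SCs of the same cultures averaged 93.7 CPM of EDIL3 at P2 and 91.4 CPM at P8, so at P2 SCs lay above FAPs. ITGA6, the laminin-binding integrin chain alpha 6, rose from 1.48, 1.82 and 4.57 CPM to 23.2, 11.9 and 56.8 CPM (log2FC 3.49, SE 0.25, edgeR adjusted p = 0.00321). After thinning, 1.29% of FAPs carried an ITGA6 UMI at P2 and 14.4% at P8. Labelled SCs averaged 14.9 CPM of ITGA6 at P2 and 48.5 CPM at P8. FCGR1A, which encodes an Fc receptor best known from macrophages, rose from 8.90, 3.2 and 6.74 CPM to 31.3, 25.0 and 32.5 CPM, while PTPRC and CD74 remained at 0. STMN2, a regulator of microtubules known from neurons, rose from 1.52, 3.51 and 2.68 CPM to 8.64, 34.0 and 60.1 CPM. Its adjusted p in edgeR was 0.28 without donor 2. Few FAPs carried a STMN2 UMI after thinning, 1.54% at P2 and 6.11% at P8.

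The remaining rises were CDO1, GLDC, TFAP2A, IFIT2, TTC9B and MYLPF. CDO1, which oxidises cysteine, went from 2.36, 5.70 and 5.13 CPM to 22.3, 31.2 and 47.8 CPM (log2FC 2.97), and GLDC, which cleaves glycine in mitochondria, from 5.78, 4.75 and 5.56 CPM to 17.7, 16.2 and 39.6 CPM (log2FC 2.08). In both genes every P8 value exceeded every P2 value. The transcription factor gene TFAP2A rose from 4.15, 11.6 and 5.60 CPM to 17.2, 33.7 and 23.7 CPM, and the interferon-induced gene IFIT2 from 8.71, 1.89 and 7.61 CPM to 24.3, 8.43 and 37.7 CPM. IFIT2 was the only rise of the 15 whose groups overlapped, because donor 2 was low at both passages. TTC9B, a tetratricopeptide repeat gene, rose from 3.03 to 5.44 CPM at P2 to 18.1 to 33.0 CPM at P8. MYLPF is described with the muscle lineage below. In EDIL3, ITGA6, CDO1, GLDC, IFIT2, TFAP2A and MYLPF the P2 mean of labelled SCs was above that of FAPs. In SST, STMN2, CCL26, APOA1, TTC9B, FCGR1A, TFPI and CCN3 it was below. Whether RNA from SCs had a part in these rises was not tested.

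The 15 largest falls were smaller in size. IL1R2, a decoy receptor that binds interleukin 1 without signalling, fell from 11.7, 24.7 and 44.4 CPM at P2 to 1.51, 4.37 and 2.18 CPM at P8 (log2FC -3.22, SE 0.31, edgeR adjusted p = 0.00647). The P8 values rested on 14, 14 and 8 UMIs. ADAMTS1, a protease of proteoglycans, fell from 82.5, 76.4 and 56.5 CPM to 15.9, 9.68 and 21.0 CPM (log2FC -2.22, SE 0.29), and its adjusted p was 0.16 without donor 1. ID1, an inhibitor of DNA-binding proteins and a direct target of BMP signalling, fell from 17.2, 27.0 and 26.3 CPM to 3.02, 8.75 and 4.37 CPM (log2FC -2.22, SE 0.22, edgeR adjusted p = 0.00535). At P5 ID1 stood at 16.4, 34.1 and 23.7 CPM, near its P2 levels. ANPEP, a membrane aminopeptidase, fell from between 19.3 and 25.3 CPM to between 5.07 and 9.68 CPM. SCD, the desaturase that makes oleate from stearate, was the most abundant nuclear gene among the falls, with 453, 384 and 426 CPM at P2 and 206, 89.0 and 201 CPM at P8 (log2FC -1.43, SE 0.22, edgeR adjusted p = 0.0306).

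A pair of inhibitors of the cell cycle fell too. CDKN1C went from 15.1, 32.4 and 19.3 CPM to 4.97, 11.2 and 7.37 CPM (log2FC -1.51, SE 0.15), and CDKN2C from 27.9, 34.7 and 30.9 CPM to 14.0, 12.2 and 9.01 CPM (log2FC -1.38, SE 0.18). Neither gene overlapped between passages. SH3BGR fell from 23.1, 44.6 and 25.4 CPM to 5.29, 23.7 and 11.2 CPM, and this was the only fall of the 15 whose groups overlapped. TCEAL9, XAF1 and PCDH18, of which PCDH18 is a protocadherin and XAF1 an interferon-induced gene, fell by between 1.07 and 1.16 on the log2 scale. The calls of ANPEP, SH3BGR and XAF1 were lost without donor 1 or without donor 9, at adjusted p values between 0.059 and 0.13. Those of PCDH18 and TCEAL9 were lost without donor 9 (0.069 and 0.068) and without donor 2, where the log2FC values were -0.89 and -0.99. Of the 30 genes, 11 were called under every one of the 14 alternatives run, namely CCL26, EDIL3, CDO1, TTC9B, FCGR1A, GLDC, TFPI, MYLPF, CDKN2C, COL5A3 and ND3. Among these alternatives, the marker rule kept every labelled FAP and could only repeat the main fit. The fit without donor 2 rested on donors 1 and 9 alone and called more genes than the main fit, so it was a weak check.

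**Figure D2:**
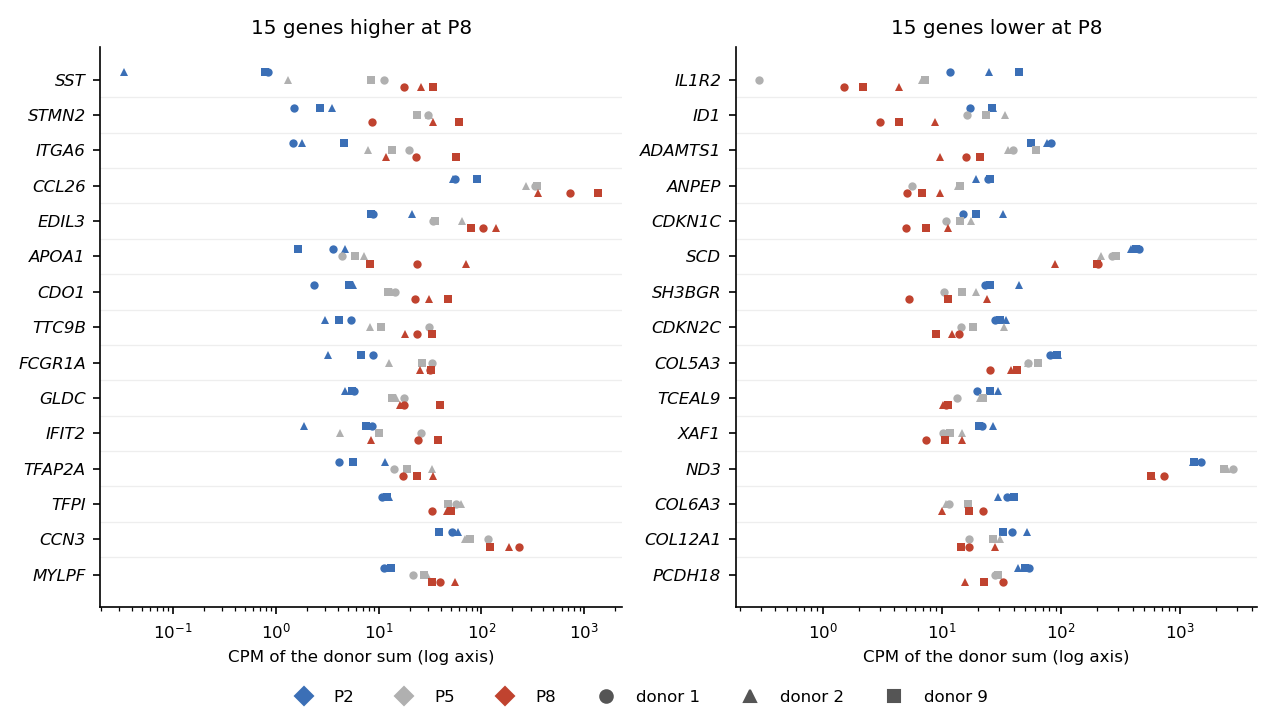
Level of each of the 30 named genes in the FAP sum of each donor (CPM, log axis), with colour for the passage and shape for the donor. P8 values lie to the right of P2 values in the left panel and to the left of them in the right panel, except that the groups overlap in IFIT2 and SH3BGR, and the P5 mean lies between in 14 of 15 rises and 12 of 15 falls.

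P5 was no part of the rule that chose the genes. The P5 mean lay between those of P2 and P8 in 163 of the 191 called genes (85.3%) and in 29.0% of all genes tested. A wide gap between P2 and P8 leaves more room for a value in between, and no test was made of this. PCDH18, COL12A1 and CDKN2C showed such a course, whereas ND3 had a mean of 2537 CPM at P5, above both, and COL6A3 had its lowest mean at P5.

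The called genes of interstitial collagens were all lower at P8. Of 34 interstitial collagen and collagen processing genes tested, 0 were called higher and 3 lower in the edgeR fit. Of all 11387 genes, 129 (1.13%) were called higher and 62 (0.544%) lower. At an unadjusted p below 0.05 in edgeR, 5 of the 34 were higher and 14 lower, beside 878 and 784 of all genes. The list had a median log2FC of -0.35 and 8 values above 0. Donor medians were -0.06, -0.29 and -0.53 in donors 1, 2 and 9, and the median in the sorted FAP cultures described below was 0.20. COL5A3, the alpha 3 chain of collagen V, stood at 81.2, 93.7 and 93.3 CPM at P2 and at 25.3, 38.4 and 43.1 CPM at P8 (log2FC -1.37, SE 0.15, edgeR adjusted p = 0.00649). COL6A3 fell from 35.5, 29.4 and 40.3 CPM to 22.1, 9.99 and 16.9 CPM, and COL12A1, which binds collagen I fibrils, from 38.5, 51.6 and 32.4 CPM to 17.1, 27.8 and 14.5 CPM. The COL6A3 call was lost without donor 2 (log2FC -0.90) and without donor 9 (adjusted p = 0.12), and the COL12A1 call without donor 1 (adjusted p = 0.061). The abundant chains did not pass the rule: COL1A1 was at 8605, 15730.0 and 8254 CPM at P2 and at 8394, 13002 and 4619 CPM at P8 (log2FC -0.38, SE 0.15, edgeR adjusted p = 0.32), and COL3A1 had a log2FC of -0.63 (SE 0.24, adjusted p = 0.33). The largest difference of the list was in COL11A1, at 22.8, 165 and 21.0 CPM at P2 and at 166, 308 and 112 CPM at P8, higher in all 3 donors but not called (log2FC 2.06, SE 0.46, edgeR adjusted p = 0.17). COL6A1, the partner of COL6A3, had a log2FC of 0.56 with an adjusted p of 0.055.

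Of 17 basement membrane genes, COL15A1 alone was called, from 6.69, 4.99 and 4.49 CPM to 0.432, 0.937 and 1.36 CPM (log2FC -2.83). Without donor 1 its log2FC was -2.01 (edgeR adjusted p = 0.12), and without donor 9 it was -3.37. Of 27 small leucine-rich proteoglycan and elastic fibre genes, LTBP3, a binding protein of latent TGF-beta, was called higher (log2FC 1.16, adjusted p = 0.025 in edgeR), but not without donor 2 (log2FC 0.97) or donor 9 (adjusted p = 0.12). LUM had a log2FC of -0.79 with an adjusted p of 0.026, short of the fold limit. Among 31 proteases and inhibitors, the collagenase gene MMP1 rose from 1.86, 1.99 and 1.70 CPM to 6.80, 9.99 and 10.6 CPM (log2FC 2.26, SE 0.24, edgeR adjusted p = 0.0068), and SERPINE2, an inhibitor of thrombin and plasminogen activators, rose from 190, 71.5 and 149 CPM to 369, 136 and 347 CPM, a call lost without donor 1 (adjusted p = 0.054) or donor 9 (0.075). ADAMTS1 was the only 1 called lower. The median log2FC of the proteases was -0.08. Beside the counts of these lists, 1.13% of all genes tested were called higher and 0.544% lower.

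Integrin subunits gave 5 called rises and 0 called falls among 14 genes tested, with a median log2FC of 0.10. Of all genes tested, 1.13% were called higher and 0.544% lower. ITGA1, a chain of the collagen receptor alpha1 beta1, was at 28.0, 43.2 and 34.0 CPM at P2 and at 91.7, 92.5 and 92.3 CPM at P8, so the 3 animals met at nearly the same level (log2FC 1.42, SE 0.14, edgeR adjusted p = 0.0054). ITGA3 and ITGA6, which pair with beta chains into laminin receptors, rose together with ITGB4, the beta chain that pairs with alpha 6. ITGB4 went from 1.14, 1.38 and 3.04 CPM to 7.45, 5.93 and 12 CPM (log2FC 2.26, SE 0.25). The ITGA3 call (log2FC 1.19) was lost without donor 9 (0.91), and that of ITGA8 (log2FC 1.03) without donor 1 or donor 2 (0.95 in both) and without donor 9 (adjusted p = 0.062). ITGA5, the fibronectin receptor chain used as a FAP marker, had a log2FC of -0.02 (SE 0.20, adjusted p = 0.99 in edgeR).

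Secreted cytokines and chemokines had the highest median of the lists with 10 or more genes tested, a log2FC of 0.55. Of their 36 values 26 were above 0, and 4 genes were called higher and 0 lower, beside 1.13% and 0.544% of all genes. The median changes of donors 1, 2 and 9 were 0.00, 0.72 and 0.29, with 18, 29 and 23 of the 36 genes higher at P8, so the median change was near 0 in donor 1 and largest in donor 2. IL6 rose from 87.1, 32.9 and 74.1 CPM to 214, 106 and 168 CPM (log2FC 1.38, SE 0.14, edgeR adjusted p = 0.0053). CXCL8, a neutrophil chemokine, rose from 14.8, 2.53 and 16.8 CPM to 28.8, 8.12 and 57.3 CPM, and its adjusted p was 0.078 without donor 9. Both genes were lowest in donor 2 at P2 and at P8. IL7 just reached the limit (log2FC 1.13), and its call was lost without donor 1 (adjusted p = 0.16), donor 2 (log2FC 0.93) or donor 9 (adjusted p = 0.13). CCL26, the other called member, is given above. The abundant chemokines CCL2 and CXCL5 had log2FC values of 0.56 and 0.55 with adjusted p values of 0.062 and 0.054. Of 54 interferon-stimulated and MHC class I genes, IFIT2 and the class I gene JSP.1 were called higher and XAF1 lower. Reads of class I genes can be shared with close copies, so the value for JSP.1 is uncertain, and its call was lost without donor 2 (log2FC 0.94) or donor 9 (0.96).

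Growth factors and their modulators also held rises. Of 31 growth factor ligand and receptor genes tested, 4 were called higher and 0 lower, beside 1.13% and 0.544% of all genes. The median log2FC of this list was 0.10, with 21 values above 0 and 10 below. PTN, a heparin-binding growth factor, was already abundant at P2 with 315, 401 and 272 CPM and reached 819, 919 and 789 CPM at P8 (log2FC 1.37, SE 0.12, edgeR adjusted p = 0.0043). The ErbB ligand gene NRG1 appeared under a pair of gene identifiers, both called higher, with log2FC values of 2.93 and 2.39 from levels of 0.647 to 2.49 CPM. The call of the latter was lost without donor 1 (adjusted p = 0.12) or donor 9 (0.10). BDNF, a neurotrophin, rose from 3.73, 3.17 and 4.26 CPM to 9.83, 21.6 and 13.9 CPM, with an adjusted p of 0.054 without donor 9. In the TGF-beta superfamily list, 3 of 34 genes were called higher and 1, ID1, lower. GREM1, a secreted antagonist of BMPs, went from 0.380, 0.438 and 0.552 CPM to 3.45, 22.2 and 25.7 CPM (log2FC 5.02, SE 0.46, edgeR adjusted p = 0.0071). CHRDL1, another BMP antagonist, rose from 16.2, 27.2 and 22.5 CPM to 31.5, 89.3 and 50.2 CPM, and the stress-induced gene GDF15 from 6.47, 3.10 and 5.87 CPM to 19.3, 8.43 and 24.0 CPM. Of 23 Wnt pathway genes, WNT5B and RSPO3, which amplifies Wnt signals, were called higher (log2FC 1.71 and 1.29), and both calls were lost without donor 1 (adjusted p = 0.28 and 0.060) or donor 9 (0.17 and 0.075). Of 44 HOX and positional genes, HOXB4, HOXB7 and HOXB9 were called, all higher, with HOXB7 going from 1.33, 1.15 and 1.54 CPM to 16.2, 3.12 and 10.6 CPM. None of these 3 calls held without donor 1 or without donor 9, where HOXB7 had adjusted p values of 0.065 and 0.094 and HOXB4 of 0.22 and 0.11. RARB, a retinoic acid receptor, was called higher among 26 retinoid and glucocorticoid genes (log2FC 2.38), with an adjusted p of 0.17 without donor 1.

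Genes of the muscle lineage showed a divided picture. PAX3, a transcription factor of myogenic progenitors, was at 0.304, 0.236 and 0.158 CPM at P2, at 11.4, 6.28 and 6.17 CPM at P5 and at 11.1, 14.4 and 14.2 CPM at P8 (log2FC 5.76, SE 0.31, edgeR adjusted p = 0.0011). The P8 values were close together and far from P2. After thinning to 8000 UMIs, 0.0831% of FAPs carried a PAX3 UMI at P2 and 10.3% at P8 (0.745% and 19.4% without thinning), against 4.63% and 25.0% of SCs (8.90% and 34.7%). Of contractile proteins of muscle, MYLPF went from 11.3, 12.4 and 13.3 CPM to 39.5, 55.3 and 33.3 CPM (log2FC 1.77, SE 0.17, edgeR adjusted p = 0.00535), TNNC2 from 4.22 to 4.92 CPM to 10.1 to 15.3 CPM, and MYL2 from 0.152 to 0.371 CPM to 3.56 to 6.25 CPM. TNNC2 and MYL2 were chosen after their values were seen, and ACTC1, the cardiac alpha actin gene, stood at 23.6, 27.1 and 26.1 CPM at P2 and at 17.6, 22.2 and 17.2 CPM at P8 (log2FC -0.44). Over the 34 contractile and SRF target genes the median was -0.01 with 1 called. The intermediate filament gene DES rose from 3.38, 3.44 and 3.55 CPM to 9.29, 9.37 and 20.7 CPM, and its adjusted p was 0.053 without donor 9. The other muscle regulators did not pass the rule: MYF5, MYF6 and MYOD1 had log2FC values of -0.06, -0.94 and -1.17 (edgeR adjusted p = 0.97, 0.39 and 0.37), and MYOG was at 2.81, 2.56 and 3.04 CPM and then at 0.540, 2.19 and 1.64 CPM (log2FC -1.19, adjusted p = 0.29 in edgeR), and the SC integrin gene ITGA7 had a log2FC of -1.29 (adjusted p = 0.21). Over the whole SC and myogenic list, 2 of 12 genes tested were called higher and 0 lower, beside 1.13% and 0.544% of all genes. The summed level of that list was 46.6 to 52.2 CPM at P2 and 50.9 to 69.6 CPM at P8. PAX7 did not pass 0.0674 CPM in any sum at P2 or P8. Labelled SCs of the same cultures, with levels far above those of FAPs, held 817 CPM of MYLPF on average at P2 and 6235 CPM at P8, and 58.3, 261 and 64.8 CPM of DES at P2 and 151, 2817 and 225 CPM at P8. SC levels were thus higher at P8 as well, on few cells, and the part of RNA from SCs in the FAP sums was not tested. Nor was the part of unseen doublets of a FAP and an SC from the same donor. When FAPs with a UMI of MYF5, MYOD1, MYOG, NCAM1 or ITGA7 were left out, an alternative added after the data were seen, MYLPF had a log2FC of 1.49 (edgeR adjusted p = 0.0072), DES 1.61 and PAX3 6.06. That left 455 of 704, 667 of 980 and 505 of 733 FAPs of donors 1, 2 and 9 at P2. At P8 it left 354 of 389, 182 of 210 and 128 of 147. It took out a larger part at P2, so it says little of RNA from SCs at P8.

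Among the lists of cell cycle genes, calls fell in that of D cyclins, CDK inhibitors and senescence genes alone. Of 60 S phase and DNA replication genes, 54 had a log2FC below 0 with a median of -0.30, and 0 were called by edgeR or by DESeq2, with 13 lower and 0 higher at an unadjusted p below 0.05, beside 784 lower and 878 higher of all 11387 genes. The 66 mitosis and spindle genes had a median of -0.06 and 0 called by edgeR or by DESeq2, with 2 lower and 1 higher at an unadjusted p below 0.05. The donors were opposed in these genes, with 55 of 66 higher at P8 in donor 1 (median change 0.17), 57 lower in donor 2 (-0.33) and 46 lower in donor 9 (-0.10). Of 33 D cyclin, CDK inhibitor and senescence genes 3 were called higher, namely CCND2, ZMAT3 and GDF15, and 2 lower, the inhibitor genes CDKN1C and CDKN2C given above. Of all genes tested, 1.13% were called higher and 0.544% lower. At an unadjusted p below 0.05 in edgeR, 11 of the 33 were higher and 4 lower. CCND2 rose from 123, 82.7 and 107 CPM to 174, 182 and 280 CPM (log2FC 1.01), but the call was lost without donor 2 (log2FC 0.95) and without donor 9 (0.82). The p53 target gene ZMAT3 was called higher from levels under 4 CPM, and its call was lost without donor 1 (adjusted p = 0.15) or donor 9 (0.14). CDKN1A, the inhibitor p21, had a log2FC of 0.48 (SE 0.17, adjusted p = 0.25 in edgeR). At P5 all but 1 of the 66 mitosis genes had a mean below both P2 and P8, as did 57 of the 60 S phase genes and 4201 of all 11387 genes. By the deposited phase calls, 68.2%, 83.9% and 75.6% of the FAPs of donors 1, 2 and 9 were in G1 at P2 and 49.9%, 81.0% and 59.2% at P8. The share called in S phase was 18.6%, 9.80% and 13.9% at P2 and 27.8%, 11.9% and 23.8% at P8, higher in 3 of 3 donors, while 54 of the 60 S phase genes lay below 0. Over the FAPs of deposited phase G1 alone, 184 genes were called.

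All 13 mitochondrially encoded genes tested had a log2FC below 0, with a median of -0.57, and ND3, a subunit of complex I, was the only 1 called, from 1501, 1283 and 1319 CPM to 730, 584 and 569 CPM (log2FC -1.13, SE 0.11, edgeR adjusted p = 0.00535). ND1, ND2, ND4, CYTB and ATP6 passed the adjusted p but not the fold. In 11 of the 13 all P8 donors were below all P2 donors, and in 13 of 13 the P5 mean was above both, beside 1046 and 3885 of all 11387 genes. The 76 nuclear genes of oxidative phosphorylation had a median log2FC of 0.03, and the 83 cytosolic ribosomal protein genes one of -0.05, in both cases with 0 called by edgeR or DESeq2 and 0 at an unadjusted p below 0.05. In cholesterol and fatty acid synthesis, SCD was called lower and TM7SF2, a sterol reductase, higher among 39 genes with a median of -0.29. The TM7SF2 call was lost without donor 2 (log2FC 0.95) or donor 9 (0.86). Shares over all genes tested were 1.13% called higher and 0.544% lower.

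**Figure D3:**
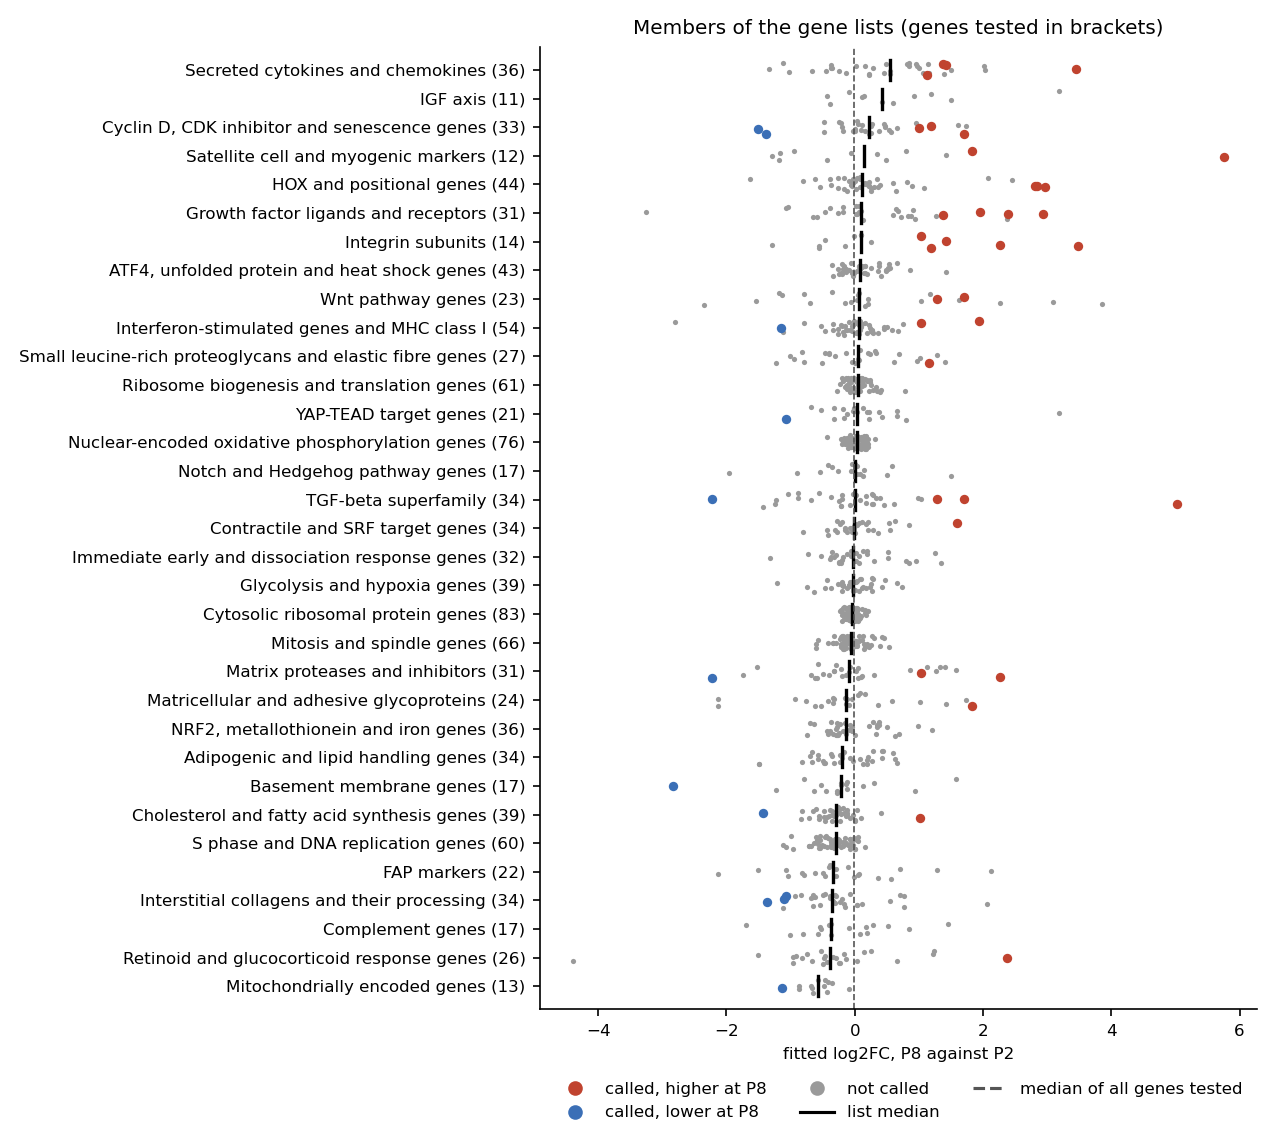
Fitted log2FC (P8 against P2) of every tested member of the lists with at least 10 tested genes, with called genes in colour, the list median as a black bar and the median of all tested genes (-0.01) as a dashed line. Called rises number 5 of 14 integrins, 4 of 31 growth factor genes and 4 of 36 cytokine genes, beside 1.13% of all genes tested. The lists were drawn up with earlier results of these data known. All mitochondrially encoded genes lie below 0 with 1 called.

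Over the 38 lists, 1112 distinct genes were tested and 47 were called, 35 higher and 12 lower, which is 4.23% beside 1.68% of all genes. The lists were drawn up with earlier results of these data known, so the share is a description. In 17 of the lists edgeR called no gene, among them FAP markers, complement genes, adipogenic and lipid handling genes, glycolysis and hypoxia genes, the IGF axis and heat shock and unfolded protein genes. DESeq2 called 3 of the 22 FAP markers, beside 267 of the 11387 genes tested by edgeR. It called 1 gene each in the complement, adipogenic, IGF and heat shock lists and 0 in the glycolysis list. By edgeR, FAP markers had a median log2FC of -0.34 over 22 genes, with donor medians of -0.37, 0.15 and -0.74 in donors 1, 2 and 9 and 12 of the 22 higher at P8 in donor 2. PDGFRA had a log2FC of -1.07 (SE 0.38, edgeR adjusted p = 0.32) and the matrix gene DPT one of -2.14 (SE 0.46, edgeR adjusted p = 0.15).

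Among called genes outside the lists, DEFB10, a beta-defensin, was at 32.2, 7.05 and 9.70 CPM at P2 (1302 UMIs in all) and at 0 UMIs in all 3 sums at P8. Against a floor of 3 UMIs over the P8 sums it was at least 86.1-fold lower. Donor 1 held 847 of the P2 UMIs, and without it the bound was at least 18.9-fold (91.2-fold without donor 2 and 78.4-fold without donor 9). The defensin genes have close copies among which reads may be split. ARAF, listed at 1665, 1735 and 1740 CPM at P2 and at 4183, 3790 and 4299 CPM at P8, was the most abundant called rise (log2FC 1.25, SE 0.11, edgeR adjusted p = 0.0036). ARAF has TIMP1 among its neighbours in the RefSeq annotation of ARS-UCD2.0 and TIMP1 had no row in the gene table used here, and whether reads of TIMP1 were counted for ARAF was not tested.

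Donor 2, the calf, took another path than donors 1 and 9 in part of the genes. Over 5124 genes at 20 CPM or more, the changes of donors 1 and 9 correlated with r = 0.77, those of donors 1 and 2 with r = 0.28 and those of donors 2 and 9 with r = 0.36. These are descriptions across genes of the same pair of libraries. In 31 genes donor 2 rose more than 2-fold where both others fell, while the count was 0 for donor 1 and 0 for donor 9 set against their others. In the opposite direction, 9 genes fell more than 2-fold in donor 2 where both others rose, with 3 for donor 1 and 2 for donor 9. With 1 calf and 2 adults no test of age can be made, and the genes below were chosen after their values were seen.

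The largest gap between the change of donor 2 and the mean change of the others was 5.43 on the log2 scale, in ENSBTAG00000022395, which has no symbol in the files. SAA3, a serum amyloid A, came next with 5.29 and went from 366 to 10727 CPM in donor 2, but from 368 to 323 CPM in donor 1 and from 973 to 617 CPM in donor 9. M-SAA3.2, a close copy with which it may share reads, went from 771 to 16055 CPM in donor 2, from 546 to 634 CPM in donor 1 and from 1572 to 884 CPM in donor 9. The P5 values of donor 2 lay between for both genes, at 3041 and 4664 CPM. Of 17 complement genes tested, 13 were higher at P8 in donor 2, and 13 and 12 were lower in donors 1 and 9. CFB, complement factor B, was at 868, 1215 and 1061 CPM at P2 and at 389.5, 2537 and 365 CPM at P8, and C1S, a protease of the classical pathway, at 159, 215 and 196 CPM and then at 98.7, 520 and 60.1 CPM. Neither was called in the fit over all donors (adjusted p = 0.79 and 0.89 in edgeR).

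A few other genes with a wide gap are given as examples. SFRP4, a secreted Wnt antagonist, was at 1906, 1525 and 1962 CPM at P2 and at 459, 3106 and 410 CPM at P8. CHI3L1, a chitinase-like glycoprotein, went from 193, 189 and 215 CPM to 12.2, 251 and 10.6 CPM, and the scavenger receptor gene SCARA5 from 55.7, 47.9 and 40.3 CPM to 23.2, 167 and 6.55 CPM. In each of these genes the P2 values of the 3 donors were alike and the P8 value of donor 2 stood apart. Some genes went the other way in donor 2: FABP3, a fatty acid binding protein, was at 987, 655 and 858 CPM at P2 and at 809, 142 and 811 CPM at P8, and INSIG1, a sensor of sterols, at 90.7, 83.5 and 85.0 CPM and then at 89.9, 23.1 and 80.8 CPM. FASN, the fatty acid synthase, fell from 131 to 39.7 CPM in donor 2 and stood at 132 and 120 CPM, then at 123 and 122 CPM, in donors 1 and 9. Over the 39 cholesterol and fatty acid synthesis genes the median change was -0.81 in donor 2, with 34 lower at P8, and -0.09 and 0.01 in donors 1 and 9. The 34 adipogenic and lipid handling genes had medians of 0.06 in donor 2 and -0.22 and -0.26 in donors 1 and 9. In the sorted cultures of donors 4 and 7, which were calves as well, SFRP4 fell from 989 and 1457 CPM to 265 and 1108 CPM. SCARA5 and CHI3L1 were also lower there at P8. SAA3 was higher, going from 58.4 and 131 CPM to 147 and 450 CPM. FABP3 rose from 519 to 958 CPM in donor 4 and fell from 483 to 345 CPM in donor 7. An effect of age was not tested. Among the unsorted cultures, donor 2 also had the fewest UMIs per FAP and the largest FAP share at each passage.

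**Figure D4:**
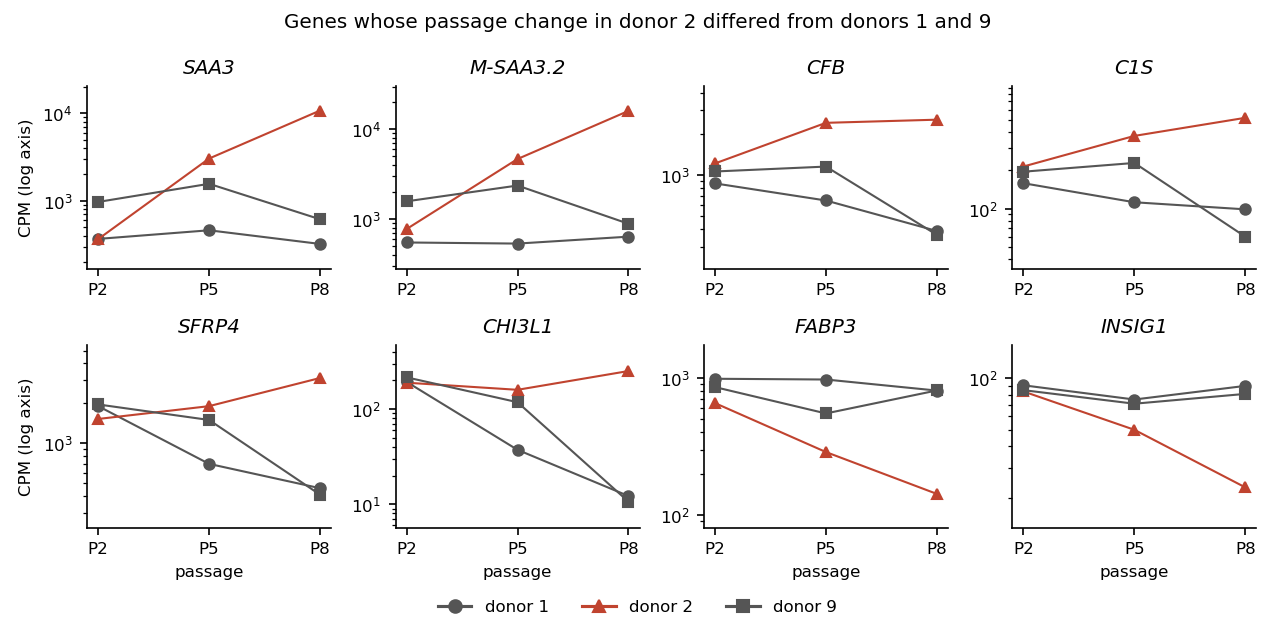
Level of 8 genes in the FAP sum of each donor at P2, P5 and P8 (CPM, log axis), with donor 2 in red. Donor 2 moves up in SAA3, M-SAA3.2, CFB, C1S and SFRP4, stays near its P2 level in CHI3L1 and moves down in FABP3 and INSIG1, while donors 1 and 9 end within 2-fold of each other in all 8 genes.

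A few large differences had the same sign in all 3 animals but did not pass the rule. STAR, which carries cholesterol into mitochondria, went from 166, 230 and 140 CPM to 14.0, 60.3 and 6.82 CPM (log2FC -3.15, SE 0.54, edgeR adjusted p = 0.11). IGFBP3, a carrier of insulin-like growth factors, went from 13.3, 23.5 and 19 CPM to 41.9, 338 and 282 CPM (log2FC 3.18, SE 0.64, edgeR adjusted p = 0.17), and NTS, the gene of neurotensin, from 11.9, 31.2 and 22.2 CPM to 152, 134 and 340 CPM (log2FC 3.25, SE 0.46, edgeR adjusted p = 0.065). KRT19, a keratin, was at 0.472 to 1.85 CPM at P2 and reached 289 CPM in donor 9 at P8, against 6.37 and 3.75 CPM in donors 1 and 2. These 4 genes were chosen after their values were seen.

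Sorted FAP cultures of other animals were set beside the unsorted ones. They had no part in choosing the genes but were sequenced in the same P2 and P8 libraries, so a library effect would be shared by both. In donors 4, 7 and 8, 244 of 11082 genes tested were called between P8 and P2 (2.2%), 140 higher (1.26%) and 104 lower (0.938%). Of the 191 genes called in unsorted cultures 172 were tested there, 158 had the same sign (91.9%, beside 61.9% of the 10984 genes tested in both), and 58 were called in the same direction, which is 30.4% of the unsorted and 23.8% of the sorted calls. Of the 30 named genes 27 had the same sign, and 9 were called. SST rose from at most 0.106 CPM at P2 to 19.2, 4.52 and 4.00 CPM at P8 in donors 4, 7 and 8 (log2FC 7.00, SE 0.39, edgeR adjusted p = 1.86e-06). ID1 went from 25.8, 25.6 and 30.5 CPM to 6.82, 6.68 and 6.95 CPM (log2FC -1.99, SE 0.12, edgeR adjusted p = 2.91e-06), and MYLPF from 10.4, 13.6 and 13.8 CPM to 42.1, 53.1 and 50.7 CPM (log2FC 1.96). COL5A3, FCGR1A, GLDC, TFAP2A, ITGA6 and APOA1 were also called there in the same direction. STMN2 was at 5.65 to 20.3 CPM at P2 and at 6.31 to 9.63 CPM at P8 in the sorted cultures (log2FC -0.28, SE 0.44), COL12A1 had a log2FC of 0.52 (SE 0.25) and ADAMTS1 of 0.55 (SE 0.20), with adjusted p values of 0.78, 0.34 and 0.22 in edgeR. The test of the difference between both kinds of culture did not pass for these 3 genes (edgeR adjusted p = 0.14, 0.093 and 0.11).

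**Figure D5:**
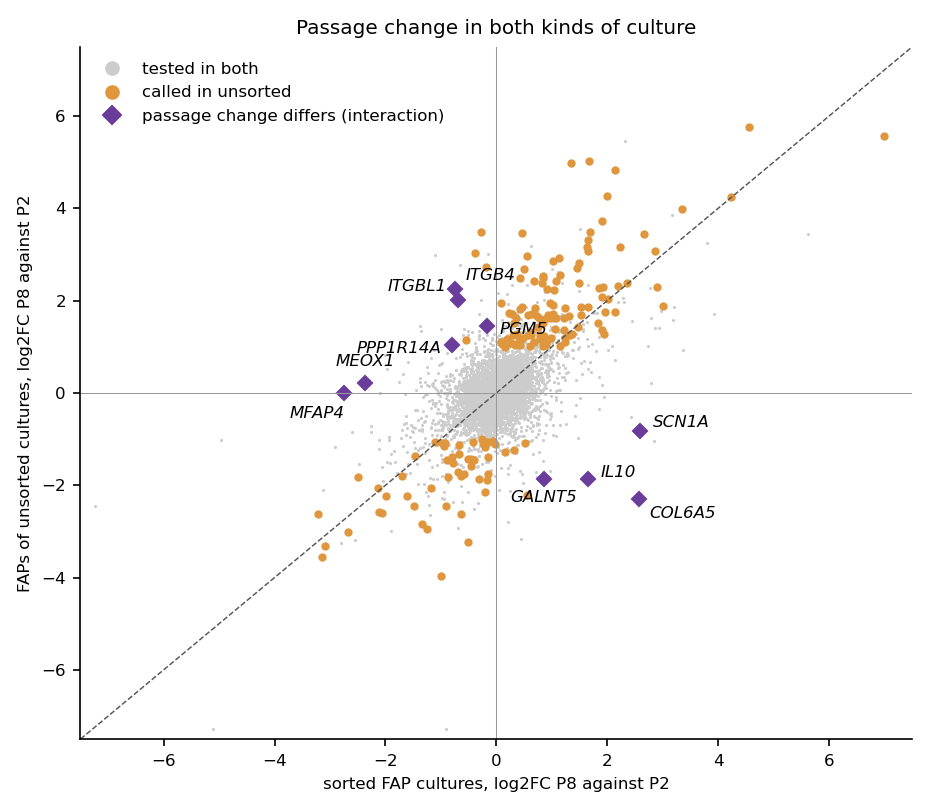
Fitted log2FC (P8 against P2) of 10984 genes tested in both kinds of culture, with sorted FAP cultures on the x axis, FAPs of unsorted cultures on the y axis and equal change along the dashed line. Of 172 genes called in unsorted cultures and tested in both (orange) 158 have the same sign in both, and the 10 genes whose passage change differed (purple diamonds) lie off the line.

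Whether the passage change itself differed between unsorted and sorted cultures was tested as an interaction over 12 sums. Of 11577 genes tested, 10 were called (0.0864%), 6 with a higher and 4 with a lower value in unsorted cultures. Of these, 5 reached a mean of 20 CPM in some group. MEOX1, a mesodermal homeobox gene, was at 33.0, 33.8 and 43.0 CPM at P2 and at 32.2, 36.5 and 64.4 CPM at P8 in unsorted cultures, whereas in sorted cultures it was at 115, 57.6 and 66.9 CPM and then at 22.6, 13.8 and 9.68 CPM (difference of log2FC 2.59, SE 0.22). MFAP4, an elastic fibre protein, was at 4.22 to 9.74 CPM and then at 3.78 to 11.9 CPM in unsorted cultures but went from 18.3 to 28.8 CPM down to 1.82 to 4.84 CPM in sorted ones. PPP1R14A, an inhibitor of myosin phosphatase, went from 21.4, 29.5 and 36.9 CPM to 41.2, 63.7 and 78.9 CPM in unsorted cultures and from 75.0, 64.2 and 54.2 CPM to 45.5, 37.9 and 28.0 CPM in sorted cultures. Its values were thus higher at P8 in 3 of 3 unsorted and lower in 3 of 3 sorted cultures (difference 1.84, SE 0.13). PGM5 had a difference of 1.61 and the sodium channel gene SCN1A of -3.40. The 5 scarcer genes, among them ITGB4 and COL6A5, are given in the closing section. Kind of culture, coating and donor cannot be told apart in this comparison, and without the donor block 0 genes were called in edgeR, with 499 at an unadjusted p below 0.05, while DESeq2 with the block called 71.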

How the data were processed

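The authors aligned the reads to ARS-UCD1.2 with Ensembl annotation in Cell Ranger 6.0.1, assigned barcodes to donors with demuxlet and labelled cell types. Per gene and barcode, the deposited values are raw UMI counts, and the deposited cell tables give donor, label, phase and percent of mitochondrial UMIs. Only singlets kept by the authors were used. No doublet caller was run. Counts were summed per donor, label and passage.

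Sums were fitted in edgeR 4.0.16 (R 4.3.3; filterByExpr, TMM factors, robust quasi-likelihood F test, 2-sided, donor as block) and adjusted by Benjamini-Hochberg over all genes tested. SE was taken from log2FC and F (size of log2FC over root F). CPM of FAPs are on 1 TMM scale over 18 FAP sums, and CPM of SCs are by the UMI totals of the SC sums alone. ± is the SD over donors. With donor as block, p-values of the fits set the passage change against its variation between animals within these libraries, and not against differences in level between animals. Donor changes are log2 of CPM plus 1. The replicate numbers are the same animals at each passage: deviations of a donor at P2 and P8 correlated with r = 0.43, 0.41 and 0.28.

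Named genes were the 15 largest called changes in each direction with a symbol, at 20 CPM or more and of 1 sign in all donors, up to 4 called members of a list in each direction, and called interaction genes. The members and lists were chosen with earlier results of these data known. Alternatives were no block, DESeq2 1.42.0, other scalings, no filter, thinned sums, a marker rule, P5 in the fit, G1 cells and leaving out each donor. A test on simulated counts preceded the fits. Second sequencing runs were listed for P2 and P5 but not for P8. They were not analysed apart, and whether their reads are part of the counts used here is not known.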

Additional observations from a re-analysis of the deposited data

Results flagged for a closer look

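The passage change of 10 genes differed between unsorted and sorted FAP cultures by the interaction test in edgeR, each at an adjusted p below 0.05 over 11577 genes. The differences are given as the log2FC of unsorted minus that of sorted cultures. Lower in unsorted cultures were COL6A5, a collagen VI chain, with -4.83 (-2.30 in unsorted and 2.57 in sorted cultures), IL10 with -3.53, SCN1A with -3.40 and GALNT5 with -2.72. Higher were PGM5 with 1.61, PPP1R14A with 1.84, MEOX1 with 2.59, ITGBL1 with 2.70, MFAP4 with 2.72 and ITGB4 with 3.00. IL10 did not exceed a group mean of 2.31 CPM, and COL6A5, GALNT5, ITGBL1 and ITGB4 stayed below a mean of 20 CPM in each group. With single donors left out, between 2 and 126 genes were called in this test.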

How the results depend on the processing

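The 191 calls between P8 and P2 became 93 without the replicate block (92 of the 191 among them), 127 with sums thinned to the smallest (111 of 154 tested), and 108 with FAPs of 15000 to 40000 UMIs alone (96 of 180), a choice made after seeing the data. Leaving out single donors gave 111 to 574 calls, 111 without donor 1, 574 without donor 2 and 113 without donor 9. DESeq2 gave 278, no filter 286 and P5 in the fit 281, and library totals, relative log expression factors and G1 cells gave between 184 and 199. The marker rule kept every labelled FAP and so gave the same 191. FAPs without a myogenic UMI, added after seeing the data, gave 195. All 191 genes kept their direction wherever they were tested. With single donors left out this was fixed beforehand, since the 191 genes had moved the same way in every donor.

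The interaction went from 10 calls to 0 without the replicate block, 71 by DESeq2, 26 without a filter and 2 to 126 with single donors left out: 22, 126 and 5 without donors 1, 2 and 9, and 5 and 2 without donors 4 and 7. Calls within the lists went from 47 to 18 without the block. The change in FAP share ranged from 9.88 to 11.7 points with single donors left out and was 0.337 points by the marker rule, which 98.9% or more of all cells pass at P2 and P8, labelled SCs included. The cause of these differences was not tested. The smaller UMI sums at P8 limit what can be said of scarce genes there.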

Other observations

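Values of some further lists and members between P8 and P2 in the edgeR fit are given here, beside 1.13% of all genes called higher and 0.544% lower. Of 34 contractile and SRF target genes 1 was called, SYNPO2, an actin-binding protein of muscle, which was higher at P8 (log2FC 1.6) but not without donor 1 (adjusted p = 0.15) or donor 9 (0.12). The YAP-TEAD target genes had a median log2FC of 0.04 over 21 genes with F3 as the only call, the 39 glycolysis and hypoxia genes a median of -0.03 and the 61 ribosome biogenesis and translation genes a median of 0.05. The 11 genes of the IGF axis had a median of 0.42 with 0 called by edgeR, 4 higher and 1 lower at an unadjusted p below 0.05 and 1 called by DESeq2. The 26 retinoid and glucocorticoid response genes lay at a median of -0.38 although RARB rose, with donor medians of -0.38, 0.03 and -0.60 in donors 1, 2 and 9.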
